A study of Rattus norvegicus with 12 samples.

Results

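Uroplakins and other genes of the urothelium, the epithelium that lines the renal pelvis, ureter and bladder, were followed in rat kidneys of 2 models of renal fibrosis. The set held 8 genes, namely the uroplakins Upk1a, Upk1b, Upk2, Upk3a and Upk3b together with Fxyd3, Psca and Trp63. These were picked from the gene symbols of both deposited tables because Upk2 and Fxyd3 were seen to rise mainly in UUO, so the fold changes of all 8 genes in both models are given as a description and carry no test. All 8 had 1 entry in each table, among 22132 entries of the control and adenine table and 32623 of the sham and UUO table. Trp63 was listed as Tp63, which RefSeq gives as the current symbol of the gene, and the other 7 under the symbols above.

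RNA was sequenced from kidneys of 12 wild-type male SD rats, bought at 8 weeks of age, with 3 rats in each of 4 groups. The control group had received saline by gavage for 3 weeks and the adenine group adenine by gavage for 3 weeks, a chemical model. Sham rats had the left ureter exposed without ligation, and UUO rats (unilateral ureteral obstruction, a surgical model) had the left ureter ligated at its proximal and distal ends, with kidneys taken 2 weeks later. Which of the 2 kidneys of a rat was sequenced, which part of it was taken, and whether it held the renal pelvis are not given in the sources used here. Levels are FPKM, fragments scaled by transcript length and by mapped fragments, so levels of different genes in a sample are on 1 scale per length. The 2 tables were made separately, and changes are given only within a table.

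Uroplakins are membrane proteins of the umbrella cells at the surface of the urothelium, where they are packed into rigid plaques that help make the epithelium a barrier to urine. Upk1a and Upk1b encode tetraspanins, and each pairs with a partner that has a single transmembrane span: UPIa with UPII, and UPIb with UPIIIa. Upk3b encodes a relative of UPIIIa that can also pair with UPIb, and Upk1b and Upk3b are known from mesothelium as well. Trp63 encodes p63, a transcription factor of the basal layer of stratified epithelia. Fxyd3 encodes a regulator of the Na,K-ATPase, and Psca a surface protein of the Ly6 family held by a GPI anchor. In bulk tissue, more cells of a type and more RNA per cell cannot be told apart.

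The promoters of 3 uroplakin genes are shown because Upk3a and Upk1b form a known pair that was high together in UUO, and Upk1a is the other tetraspanin of the plaque. The RefSeq table of GRCr8 held promoters of 5 of the 8 genes, namely Upk1a, Upk1b, Upk3a, Upk3b and Tp63. Each sequence holds the 250 bases before the annotated start, read 5′ to 3′ on the strand of the gene, and capitals mark the E-box CANNTG. Upk3a lies on the plus strand with this window at chr7:118014540-118014789, Upk1b on the plus strand with the window at chr11:75459131-75459380, and Upk1a on the minus strand with the window at chr1:94997581-94997830.
Upk3a: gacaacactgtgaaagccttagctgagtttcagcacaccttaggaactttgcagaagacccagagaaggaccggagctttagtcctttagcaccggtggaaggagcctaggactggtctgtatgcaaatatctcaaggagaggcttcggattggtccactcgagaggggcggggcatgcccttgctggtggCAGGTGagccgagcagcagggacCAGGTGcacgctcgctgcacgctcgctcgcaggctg
Upk1b: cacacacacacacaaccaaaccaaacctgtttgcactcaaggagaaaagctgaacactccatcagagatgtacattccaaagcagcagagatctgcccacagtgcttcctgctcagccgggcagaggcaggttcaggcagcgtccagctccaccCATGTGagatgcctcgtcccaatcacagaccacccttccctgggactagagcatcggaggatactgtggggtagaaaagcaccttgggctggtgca
Upk1a: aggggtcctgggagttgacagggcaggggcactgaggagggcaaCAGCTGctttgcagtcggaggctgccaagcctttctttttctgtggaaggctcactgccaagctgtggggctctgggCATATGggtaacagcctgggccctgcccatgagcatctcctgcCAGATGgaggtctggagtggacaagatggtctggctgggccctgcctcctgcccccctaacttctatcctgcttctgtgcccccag
The E-box was found 2 times before Upk3a, 1 time before Upk1b and 3 times before Upk1a, on either strand. It was found in 5 of the 5 promoters at hand and in 65.5% of all 33469 promoters of the same length, so it is a common letter pattern. GGGNGGG, a pattern of the KLF family, was found before Upk3a and Upk3b and in 41.6% of all promoters. Several patterns were in none of the 5 promoters. These were the AP-1 pattern TGANTCA, found in 6.34% of all promoters, and the FOXA pattern TGTTTAC, found in 3.21%. The pattern of GRHL factors, spelled AACCGGT, was in 0.786% of all promoters, and the pattern of GATA factors, spelled AGATAA, was in 10.3%. The nuclear receptor pattern AGGTCA was in 14.1% of them. Such matches describe the letters of these windows and say nothing of binding.

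For the adenine model 15029 entries, those with 0.5 FPKM or more in 3 or more of 6 samples, were tested, and their median log2 fold change was 0.30. For UUO 15043 were tested, with a median of 0.62. DEGs needed a limma adjusted p under 0.05 and a log2 fold change of 2 or more in either direction. They made up 15.7% of the tested entries in adenine (10.7% upregulated, 5.03% downregulated) and 17.4% in UUO (13.2% upregulated, 4.21% downregulated). Upregulated genes were thus 68.0% of the DEGs of adenine and 75.8% of those of UUO. After median-of-ratios scaling, which brought the median changes to 0.01 and 0.02, these shares were 57.0% and 55.4%. After quantile normalization they were 53.4% and 51.9%. The kidney label held, with the thick limb gene Umod at 61.3 FPKM or more in every sample. Read depth is unknown, since only FPKM were used, and p-values measure the spread among the 3 separate rats of each group.

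Control rat 2 stood apart from the other control rats. Its summed FPKM of the inner medulla markers Slc14a2 and Aqp4 was 19.2, against 3.12 and 2.74 in control rats 1 and 3. Its sum was low for podocyte markers (15.9 against 101 and 149) and for intercalated cell markers (167 against 321 and 459). This rat had the highest control level of each of the 8 urothelial genes, so their fitted adenine changes are also given without it. In the sham group the highest inner medulla sum, 8.38 in sham rat 2, stood with the lowest uroplakin sum, 0.646. A link between medulla markers and urothelial levels was not tested.

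Of the tetraspanins, Upk1a was at 27.6, 9.84 and 32.1 FPKM in UUO rats 1, 2 and 3, against 1.57, 0.440 and 0.607 in the sham rats. UUO rat 2 lay well under the other UUO rats and still above every sham rat. The log2 fold change of FPKM + 0.1 was 4.59 (SE 0.57). Upk1b was at 23.7, 20.4 and 25.1 FPKM in the UUO rats and at 0.271, 0.0265 and 0.138 in the sham rats. The UUO rats were close to each other and far above the sham rats, with a log2 fold change of 6.69 (SE 0.39).

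In the control and adenine table, Upk1a was at 0.409, 3.45 and 0.883 FPKM in the control rats and at 1.56, 0.628 and 1.83 in the adenine rats. The groups overlapped, with control rat 2 above all adenine rats. The log2 fold change was 0.13 (SE 0.74), and 0.91 without control rat 2. Upk1b was at 0.0521, 0.830 and 0.162 FPKM in the control rats and at 0.448, 0.277 and 0.948 in the adenine rats, again with overlapping groups and too low to be tested.

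Among the partners of the tetraspanins, Upk2 was at 29.4, 10.7 and 30.1 FPKM in the UUO rats, against 0.492 and 0.179 in sham rats 1 and 2, and it was listed at the table's lowest value of 0.0001 in sham rat 3. As for Upk1a, UUO rat 2 was the low one. The log2 fold change was 6.38 (SE 0.70). Upk3a was at 51.3, 28.5 and 49.1 FPKM in the UUO rats, the highest mean level of the 8 genes there, against 0.320 and 0.190 in sham rats 1 and 3 and 0.0001 in sham rat 2. The log2 fold change was 7.50 (SE 0.54), with no overlap between the groups.

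In the adenine table the groups of both partners overlapped. Upk2 was at 0.279, 1.58 and 0.303 FPKM in the control rats and at 0.642, 0.157 and 0.524 in the adenine rats. Control rat 2 was above every adenine rat, and the log2 fold change of -0.37 (SE 0.70) turned to 0.33 without control rat 2. Upk3a was listed at 0 in control rat 1 and adenine rat 2, and the remaining control rats had 1.04 and 0.113 FPKM against 0.259 and 0.464 in the remaining adenine rats.

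Upk3b was the lowest uroplakin in UUO, at 1.50, 1.33 and 1.70 FPKM, against 0.0951 in sham rat 1 and 0.0001 in sham rats 2 and 3. These UUO rats agreed closely and lay above every sham rat, with a log2 fold change of 3.68 (SE 0.38). In the adenine table Upk3b was at 0, 0.166 and 0.0178 FPKM in the control rats and at 0.401, 0.190 and 0.455 in the adenine rats. All adenine rats lay above all control rats, at levels below the minimum for testing.

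The basal factor Trp63 was near 0 outside the UUO group. It was at 0.905, 0.802 and 1.03 FPKM in the UUO rats, against 0.0224 in sham rat 1 and 0.0001 in sham rats 2 and 3. The UUO rats lay close together and above every sham rat, with a log2 fold change of 3.23 (SE 0.33). In the other table no sample passed 0.0633 FPKM, the level of adenine rat 3, and 3 of 6 samples were listed at 0.

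Fxyd3 was at 23.8, 36.8 and 24.9 FPKM in the UUO rats, against 0.628 in sham rat 1 and 0.0001 in sham rats 2 and 3. UUO rat 2, the low rat for the other 7 genes, was here the high one, and the log2 fold change was 7.18 (SE 0.77). In the control rats Fxyd3 was at 0, 1.45 and 0 FPKM, and in the adenine rats at 0.650, 0.491 and 1.49. Control rat 2 lay inside the adenine range, and the log2 fold change of 1.83 (SE 1.10) became 3.15 without that rat. RefSeq places Fxyd3 over part of Lgi4, Upk3b over part of LOC120095913 and Psca over part of Jrk. The libraries kept strand, but whether counting used it is not given in the sources used here, so reads of these pairs may be mixed.

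Psca was the 1 gene of the set with a higher level in the adenine rats than in the UUO rats, across tables that were normalized separately. It was at 287, 83.0 and 198 FPKM in the adenine rats, against 0.910, 5.47 and 1.01 in the control rats. All adenine rats lay far above all control rats, with a log2 fold change of 6.51 (SE 0.75), or 7.31 without control rat 2. In the UUO rats it was at 37.9, 34.2 and 36.8 FPKM, against 9.12, 2.43 and 0.862 in the sham rats. The UUO rats hardly differed from each other while the sham rats spread widely, and the log2 fold change was 3.69 (SE 0.73).

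**Figure D1:**
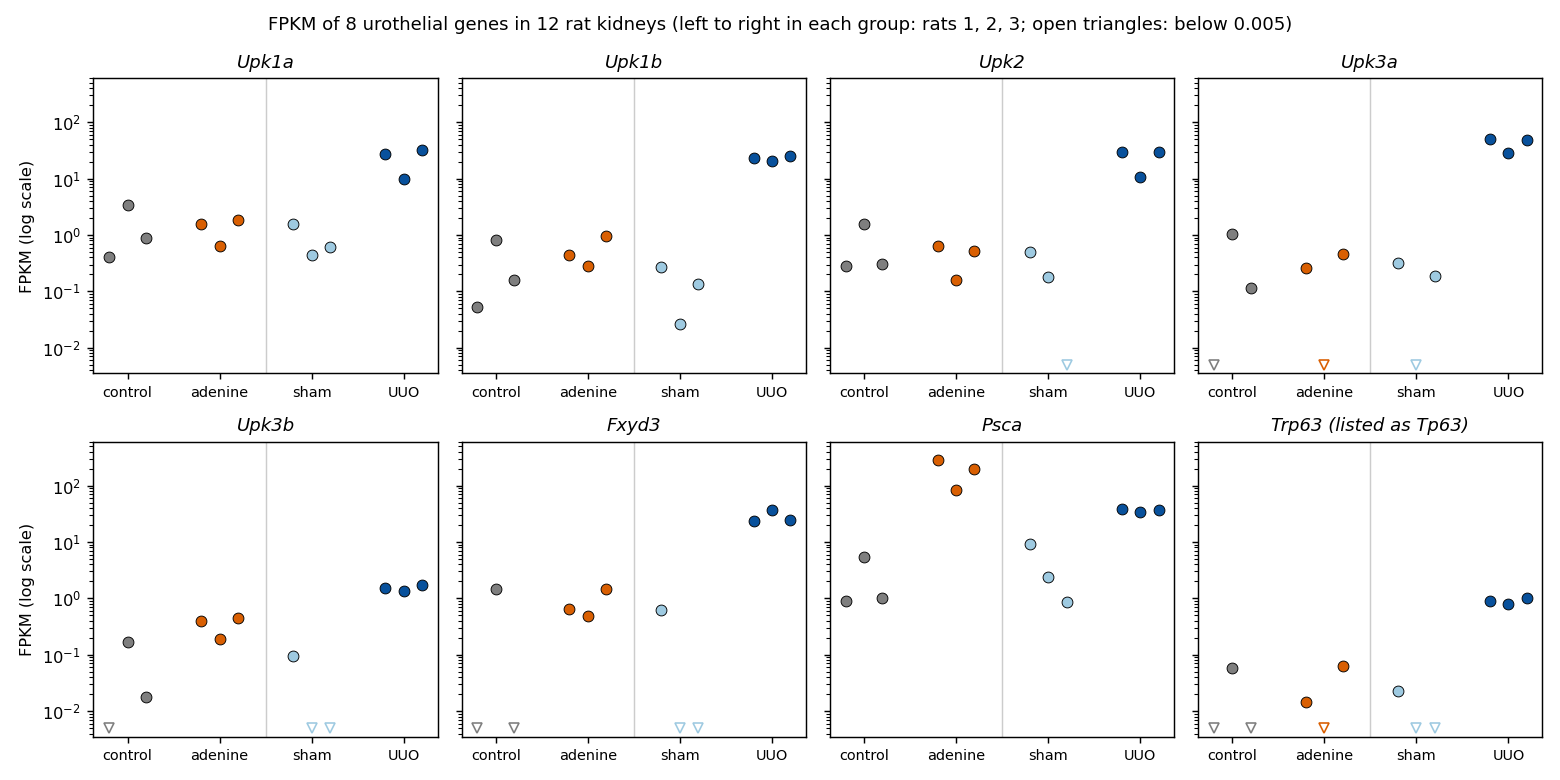
FPKM on a log scale of each of the 8 urothelial genes, 1 panel per gene, with 1 point per rat (control and adenine left, sham and UUO right of the line) and open triangles for values below 0.005. In every panel the 3 UUO points lie above the 3 sham points, while the adenine points lie above all control points for Psca and Upk3b.

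In the adenine model 4 of the 8 genes reached the minimum for testing and 1 of them, Psca, was past the DEG thresholds, where 15.7% of all tested entries were DEGs, 10.7% upregulated and 5.03% downregulated. Groups did not overlap for 2 of the 8 genes, Psca and Upk3b, both higher in adenine. Of all tested entries 68% did not overlap, 45% with adenine higher and 23% with adenine lower. In the UUO model all 8 reached the minimum and all 8 were past the thresholds, where 17.4% of all tested entries were DEGs, 13.2% upregulated and 4.21% downregulated. For 5 of the 8 no sham rat reached the minimum, so these were tested only because the UUO rats were high. Groups did not overlap for 8 of 8 genes, with UUO higher. Of all tested entries 75.7% did not overlap, 60% with UUO higher and 15.7% with UUO lower. Because the choice of genes used both contrasts, these counts are a description. The size of a change from a level near 0 depends on the pseudocount. With pseudocounts of 1 and 0.01 in place of 0.1, the UUO change of Fxyd3 was 4.62 and 9.44, and that of Trp63 was 0.92 and 5.94. With a pseudocount of 1, Trp63 and Upk3b (1.28) were under the fold threshold and 6 of the 8 genes remained past it.

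**Figure D2:**
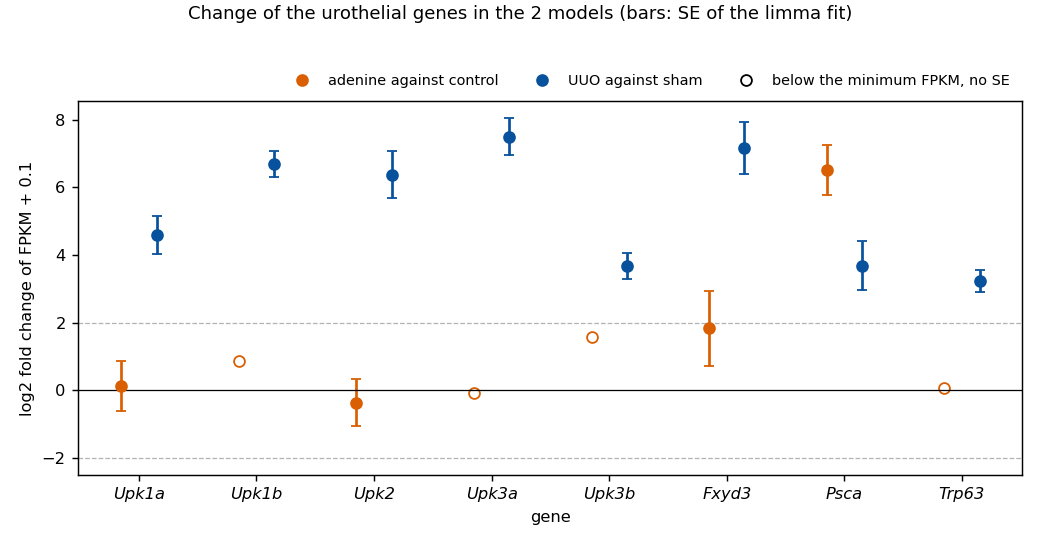
Log2 fold change of FPKM + 0.1 of the 8 genes in the adenine model (orange) and the UUO model (blue), with bars for the SE of the limma fit, open circles for genes below the minimum FPKM and dashed lines at the fold threshold. Psca lies higher in adenine (6.51) than in UUO (3.69), and the other 7 genes lie higher in UUO.

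By mean level in the UUO group, Upk3a came first at 43.0 ± 12.6 FPKM (SD, n = 3), followed by Psca at 36.3 ± 1.88 and Fxyd3 at 28.5 ± 7.21. Upk2 at 23.4 ± 11.0, Upk1a at 23.2 ± 11.8 and Upk1b at 23.1 ± 2.44 came next, and Upk3b at 1.51 ± 0.185 and Trp63 at 0.911 ± 0.112 were last. The SDs of neighbours overlapped along the order down to Upk1b, then a wide step separated Upk1b from Upk3b, and Upk3b and Trp63 did not overlap either. In the adenine group Psca, at 189 ± 102 FPKM, stood far above Upk1a, the next of the 8 genes, at 1.34 ± 0.630.

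Levels of the known pairs could be compared within each rat. The ratio of Upk1a to Upk2 was 0.939, 0.922 and 1.07 in the UUO rats. It was 1.47, 2.18 and 2.91 in the control rats, 2.43, 4.01 and 3.49 in the adenine rats, and 3.19 and 2.45 in the sham rats with both genes above the lowest value. The UUO rats thus had about equal FPKM of the UPIa and UPII genes, below the ratio of every other rat with a value. Upk1b relative to Upk3a was 0.462, 0.715 and 0.512 in the UUO rats. Among the rats of the other groups with both genes above the lowest value it ran from 0.725 to 2.04. Outside UUO these ratios rest on FPKM near or below 1.

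Rats of a group differed in the level of the whole set. Control rat 2 was the highest control rat for 8 of 8 genes and sham rat 1 the highest sham rat for 8 of 8, while adenine rat 2 was the lowest adenine rat for 8 of 8. UUO rat 2 was the lowest UUO rat for 7 of the 8, the exception being Fxyd3. The summed FPKM of the 5 uroplakins was 134, 70.7 and 138 in the UUO rats and between 0.646 and 2.75 in the sham rats. It was between 1.25 and 4.22 in the adenine rats, within the control range of 0.740 to 7.06.

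Other genes of urothelium were taken from a list of 47 symbols, 46 without Tp63, and tested with limma on all entries. In the UUO model 38 genes other than Tp63 reached the minimum, but 8 of them had no sham rat at it and were tested only because the UUO rats were high. Among the 30 with such a sham rat 16 were upregulated and none was downregulated, where 13.2% of all tested entries were upregulated. With the 8 included, 24 of 38 were past the thresholds, and the median log2 fold change was 2.38 against 0.62 for all tested entries. The 8 genes let in by high UUO rats raise this count and median, which are a description. In the adenine model 31 genes reached the minimum, 1 of them (Dsg3) with no control rat at it. Among the other 30, 6 were upregulated and none was downregulated, where 10.7% of all tested entries were upregulated. With Dsg3 the median was 0.68 against 0.30, likewise a description. Without control rat 2, 9 genes were past the thresholds, against 7 of 31 with it. In adenine 1 gene of the full list, Ovol1, was downregulated after median-of-ratios scaling (-2.02) and after quantile normalization (-2.23). After median-of-ratios scaling 15 genes of the full list were upregulated in UUO, against 25 before. Under that scaling Krt8 (1.58), Krt18 (1.90), Krt19 (1.44), Pparg (1.47), Klf4 (1.73) and Elf3 (1.73) were short of the fold threshold in UUO. So were Cldn3 (1.87), Cldn7 (1.84) and Col17a1 (1.98), and Slc14a1 had a limma adjusted p of 0.065. All of these genes had a sham rat at the minimum, so the upregulated share among such genes depends on the scaling. With a pseudocount of 1, Foxa1 (0.92), Grhl3 (1.79), Shh (1.25) and Col17a1 (1.41) were short of the fold threshold in UUO.

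Of the 8 keratins tested in UUO, 4 had a sham rat at the minimum, and 3 of these 4 were upregulated, against 13.2% of all tested entries. After median-of-ratios scaling these 3, Krt8 (1.58), Krt18 (1.90) and Krt19 (1.44), were under the fold threshold. Krt19 was also under it after quantile normalization (1.93). Krt5, Krt14, Krt15 and Krt17 had no sham rat at the minimum and were tested only through the high UUO rats. Their changes are thus a description without a p. Krt15 was at 44.3, 63.8 and 25.3 FPKM in the UUO rats and at 0.181, 0.0287 and 0.0001 in the sham rats, with a log2 fold change of 8.08 (SE 0.48). Krt14, a keratin of basal cells, was at 21.1, 31.2 and 24.5 FPKM in the UUO rats and at most 0.115 in the sham rats (7.56, SE 0.34). Both lay far above sham in each UUO rat. Krt5, the partner of Krt14 in basal filaments, was at 12.6, 2.57 and 5.95 FPKM in the UUO rats (5.81, SE 0.55). Krt17 was at 3.66, 9.64 and 3.29 FPKM in the UUO rats (5.52, SE 0.45). UUO rat 2 was thus lowest for Krt5 and highest for Krt14, Krt15 and Krt17, genes whose related sequences may share reads.

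Krt20, a keratin of umbrella cells, stayed low. It was at 0.208, 0.0705 and 0.936 FPKM in the UUO rats and at 0.0001 in every sham rat, too low to be tested. Krt13, a keratin of stratified epithelia, reached 0.112 FPKM in UUO rat 1 and was at 0.0001 in the other UUO and sham rats. In the adenine model 0 of 4 tested keratins passed the thresholds of the limma test, which 15.7% of all tested entries passed. Krt5, Krt14, Krt15 and Krt17 were too low to be tested there. Krt18 and Krt8, keratins of simple epithelia that kidney tubules also hold, had log2 fold changes of 1.88 (SE 0.20, adjusted p = 0.00037) and 1.46 (SE 0.19, adjusted p = 0.00088), short of the fold threshold. Krt7 and Krt19, at adjusted p = 0.94 and 0.23, were the other tested keratins.

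Of 12 transcription factors other than Tp63 tested in UUO, 10 had a sham rat at the minimum. Of these 10, 4 were upregulated, against 13.2% of all tested entries. After median-of-ratios scaling Pparg (1.47), Klf4 (1.73) and Elf3 (1.73) were under the fold threshold, and Klf5 (2.75) remained above it. Foxa1 and Grhl3 had no sham rat at the minimum, so their changes carry no p. Klf5, a factor of proliferating epithelia, had a log2 fold change of 3.32 (SE 0.18, adjusted p = 2e-05), with 9.16, 11.4 and 9.98 FPKM in the UUO rats and 1.02, 1.00 and 0.769 in the sham rats. Foxa1, a factor of urothelial differentiation, was at 0.756, 1.16 and 0.770 FPKM in the UUO rats and at 0.0001 in all sham rats. Its fitted log2 fold change of 3.29 (SE 0.35) depends on the pseudocount. Grhl3, which umbrella cells need, was at 3.52, 3.59 and 3.51 FPKM in the UUO rats against at most 0.396 in the sham rats (3.14, SE 0.23). Elf3 went from 22.9 to 36.1 FPKM in the sham rats to 145, 161 and 149 in the UUO rats (2.33, SE 0.17, adjusted p = 5.6e-05). Gata3, which the collecting duct expresses too, was at 7.24, 6.94 and 7.27 FPKM in the UUO rats, inside the sham range of 6.32 to 8.86.

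In the adenine model 1 of 10 tested factors was upregulated, a share near the 10.7% of all tested entries. This was Klf5, at 3.64, 4.15 and 4.66 FPKM in the adenine rats against 0.446, 1.84 and 0.403 in the control rats (2.38, SE 0.52, adjusted p = 0.0073). All adenine rats lay above control rat 2, and leaving that rat out gave a change of 3.01. After quantile normalization the change of 1.86 was under the fold threshold, as was the 1.52 found with a pseudocount of 1. Ovol1 was at 1.59, 0.862 and 1.09 FPKM in the adenine rats against 3.88 to 4.46 in the control rats. Its change of -1.75 (SE 0.24, adjusted p = 0.0011) was short of the fold threshold. It passed that threshold after median-of-ratios scaling (-2.02) and quantile normalization (-2.23).

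For uroplakin relatives and traffic, 1 of the 4 genes with a sham rat at the minimum was upregulated in UUO, Upk3bl1. The upregulated share of all tested entries was 13.2%. Snx31, a sorting nexin that binds uroplakins, was at 4.32, 8.99 and 11.3 FPKM in the UUO rats and at most 0.108 in the sham rats (5.65, SE 0.45), and it was tested only through the UUO rats. Upk3bl1, a gene related to Upk3b and next to it in the RefSeq order with 0 genes between, was at 14.5, 22.3 and 17.8 FPKM in the UUO rats and 1.28, 0.845 and 0.382 in the sham rats (4.39, SE 0.39, adjusted p = 0.00011). Its UUO levels were above those of Upk3b in each rat. In the adenine model Upk3bl1 was also upregulated (4.01, SE 1.28, adjusted p = 0.031), at 11.1, 4.34 and 14.2 FPKM against 0.104, 4.68 and 0.0742 in the control rats. Here control rat 2 overlapped the adenine rats, and the adjusted p was 0.094 without control rat 1, 0.094 without control rat 3, 0.077 without adenine rat 1 and 0.097 without adenine rat 3. Mal, Myo5b and Vps33a, which kidney tubules also express, had log2 fold changes in UUO of 0.04, 0.11 and 0.33, and all of these were negative after median-of-ratios scaling.

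Genes of attachment and signalling of the basal layer were upregulated in UUO for 3 of the 3 with a sham rat at the minimum. The upregulated share of all tested entries was 13.2%. Lamb3, a chain of laminin-332, was at 21.3, 20.1 and 16.7 FPKM in the UUO rats against at most 0.649 in the sham rats (5.27, SE 0.34, adjusted p = 3.5e-05). Itgb4, the integrin of hemidesmosomes, was at 27.7, 24.9 and 28.1 FPKM in the UUO rats against at most 2.02 in the sham rats (3.93, SE 0.15, adjusted p = 1.1e-05). Both lay well above sham in every UUO rat. Shh, a signal that basal urothelial cells send to the stroma, had a change of 3.03 (SE 0.35) and was tested only through the UUO rats. Col17a1, a hemidesmosome collagen, had a change of 2.51 (SE 0.40, adjusted p = 0.0013), which was under the fold threshold after median-of-ratios scaling (1.98).

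In the adenine model 2 of the 3 genes of this sublist with a control rat at the minimum were upregulated. The upregulated share of all tested entries was 10.7%. Lamb3 was at 6.92, 3.18 and 5.64 FPKM in the adenine rats against at most 0.929 in the control rats (3.35, SE 0.54, adjusted p = 0.0021). Itgb4 was at 9.06, 8.15 and 8.75 FPKM against at most 2.43 (2.28, SE 0.29, adjusted p = 0.00075). Dsg3, a desmosomal cadherin of stratified epithelia, was at 1.03, 0.558 and 1.28 FPKM against at most 0.0664 (2.94, SE 0.41), and was tested only through the adenine rats. Dsg3 was too low to be tested in UUO, at no more than 0.140 FPKM. The change of Itgb4 was under the fold threshold without control rat 1 (1.96), after quantile normalization (1.84), with a pseudocount of 1 (1.82) and, by a small margin, after median-of-ratios scaling.

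Of the junction and surface genes, 5 of 9 tested were upregulated in UUO and 2 of 9 in the adenine model. Of all tested entries 13.2% were upregulated in UUO and 10.7% in adenine. Sfn, the stratifin of stratified epithelia, was at 57.0, 106 and 60.0 FPKM in the UUO rats against at most 2.60 in the sham rats (5.10, SE 0.29, adjusted p = 2.5e-05). In the adenine rats it was at 24.6, 23.0 and 23.7 FPKM against at most 2.38 in the control rats (3.33, SE 0.11, adjusted p = 1.9e-05). Cldn4, a claudin of tight epithelia that the collecting duct also expresses, had changes of 3.40 (SE 0.15, adjusted p = 1.3e-05) in UUO and 2.41 (SE 0.17, adjusted p = 7.8e-05) in adenine. In UUO, Cldn3 had a change of 2.46 (SE 0.31, adjusted p = 0.0005) and Cldn7 one of 2.44 (SE 0.096, adjusted p = 1.1e-05). Both were under the fold threshold after median-of-ratios scaling, at 1.87 and 1.84. The urea transporter gene Slc14a1, which urothelium and medullary vessels share, had a change of 3.52 in UUO (SE 1.12, adjusted p = 0.026). The sham values spread widely, at 3.11, 2.82 and 0.0564 FPKM. The adjusted p was 0.054 to 0.071 when any 1 UUO rat was left out and 0.065 after median-of-ratios scaling. It was 0.078 after quantile normalization and 0.136 with no filter on low FPKM. Aqp3, of the same sublist, was lower in UUO, at 24.9, 21.2 and 24.0 FPKM against 39.1 to 58.3 in the sham rats. Its change of -0.99 (SE 0.16, adjusted p = 0.0014) was short of the fold threshold.

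**Figure D3:**
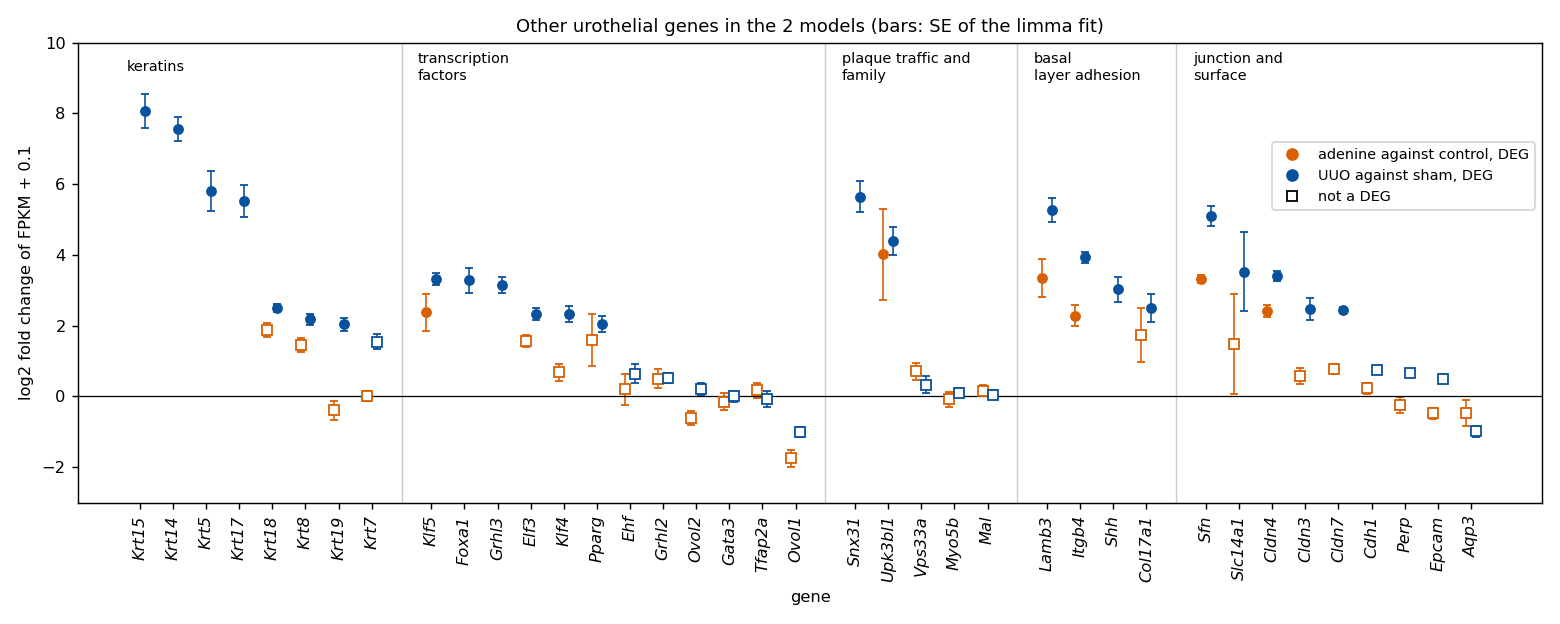
Log2 fold change of FPKM + 0.1 of the 38 listed urothelial genes tested in UUO, by sublist, in the adenine (orange) and UUO (blue) models, with bars for the SE, filled circles for DEGs and open squares for other tested genes. The basal keratins Krt15 (8.08) and Krt14 (7.56) lie highest in UUO, were tested only through the UUO rats and have no adenine value, and Sfn, Lamb3, Itgb4, Cldn4, Klf5 and Upk3bl1 are filled in both models.

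The changes of 30 listed genes other than members could be compared between the models, as a difference of log2 fold changes with limma SEs and adjustment over 13704 symbols, of which 2.9% differed (1.82% higher in UUO, 1.07% higher in adenine) at an adjusted p under 0.05 and by 2 or more on the log2 scale. Of the 30 genes 1 differed, a share near the 2.9% of all symbols. This was Krt19, a keratin that collecting ducts also express. It was at 145, 231 and 163 FPKM in UUO against 38.9 to 46.1 in sham, and at 34.7, 26.8 and 36.0 in adenine against 32.6 to 63.1 in control. The difference, UUO minus adenine, was 2.43 (SE 0.31, adjusted p = 0.00031). A further 13 genes had an adjusted p under 0.05 with a difference under the fold threshold. For most of the genes with the largest UUO changes, among them Krt5, Krt14, Krt15, Krt17, Foxa1, Grhl3, Snx31 and Shh, no such test was made since they were too low to be tested in the adenine table.

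The FXYD family of Na,K-ATPase regulators, to which Fxyd3 belongs, moved in both directions. Fxyd5, also called dysadherin, was upregulated in both models, with 187, 123 and 181 FPKM in the adenine rats against 9.39 to 9.64 in the control rats (4.07, SE 0.17, adjusted p = 2.5e-05). In the UUO rats it was at 101, 108 and 83.9 FPKM against 9.87 to 12.1 in the sham rats (3.18, SE 0.13, adjusted p = 1.3e-05). Fxyd4, the regulator of the collecting duct, was downregulated in both, by -2.11 in adenine (SE 0.31, adjusted p = 0.0014) and by -4.04 in UUO (SE 0.24, adjusted p = 2.6e-05). The adenine call of Fxyd4 was lost without control rat 2, at a change of -1.76, without adenine rat 1, at -1.99, with a pseudocount of 1, at -1.96, and with FPKM rescaled to the same sum, at -1.84. Fxyd2, the gamma subunit of nephron cells, was downregulated in UUO (-2.73, SE 0.15, adjusted p = 2.1e-05), and its adenine change of -1.89 (SE 0.18, adjusted p = 0.00024) was short of the fold threshold, which it passed after median-of-ratios scaling (-2.19). Fxyd1 was upregulated in UUO (2.12, SE 0.15, adjusted p = 4.4e-05), a call that median-of-ratios scaling (1.53), quantile normalization (1.56) and a pseudocount of 1 (1.97) took under the fold threshold.

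Markers of neighbouring tissues moved beside the urothelial genes in UUO. For the smooth muscle of the pelvis and ureter wall, 4 of 6 markers were upregulated in UUO and 1 of 6, Des, in adenine. Of all tested entries 13.2% were upregulated in UUO and 10.7% in adenine. Actg2, an actin of visceral muscle, was at 25.2, 56.0 and 2.67 FPKM in the UUO rats against 0.169, 0.579 and 2.04 in the sham rats (4.43, SE 1.21, adjusted p = 0.015, or 0.092 with no filter on low FPKM). The summed FPKM of the 6 markers was 57.3 to 95.3 in the sham rats and 607, 1215 and 560.1 in the UUO rats. Most of the UUO sums was Tagln, at 462, 1019 and 493 FPKM. Tagln also had a change of 1.66 in adenine (adjusted p = 0.00028), under the fold threshold. Myh11 overlapped between sham and UUO (adjusted p = 0.061), and Smtn had a UUO change of 0.39. UUO rat 3 had the lowest Actg2 and the highest uroplakin sum, and UUO rat 2 the highest Actg2 and the lowest uroplakin sum. Other urothelial genes, among them Fxyd3, Krt14, Krt15, Krt17, Sfn and Upk3bl1, were highest in UUO rat 2, as Actg2 was. The part of smooth muscle tissue in the urothelial values was not tested.

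**Figure D4:**
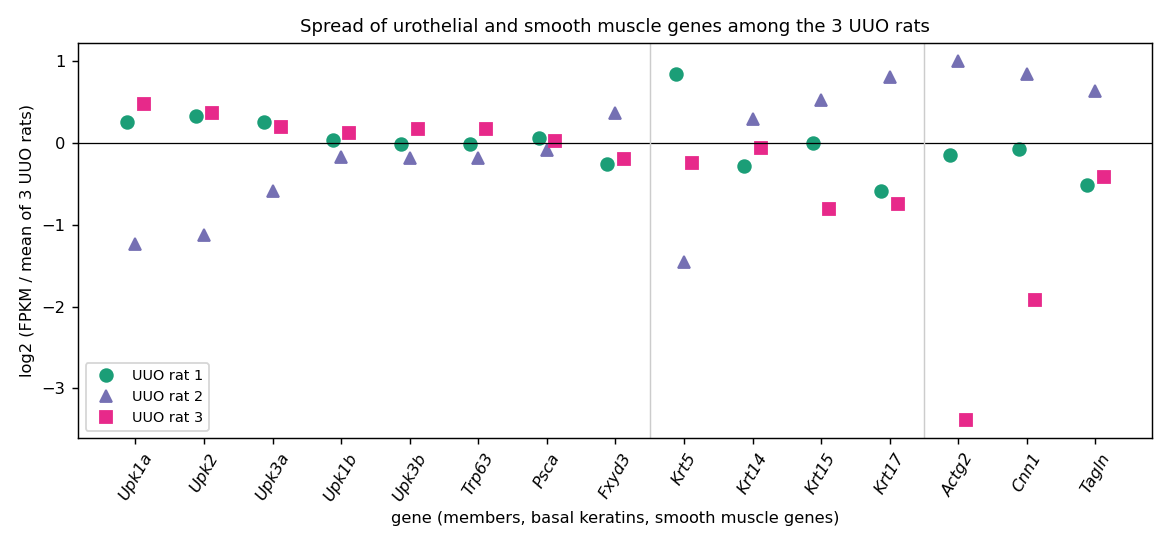
Level of each gene in UUO rats 1 (circles), 2 (triangles) and 3 (squares) relative to the mean of the 3 UUO rats, as log2 of the FPKM ratio, for the 8 urothelial genes, 4 basal keratins and 3 smooth muscle genes. Rat 2 lies lowest for Upk1a, Upk2, Upk3a and Krt5 and highest for Fxyd3, Krt14, Krt15, Krt17 and the muscle genes, while rat 3 lies far down for Actg2 (2.67 FPKM).

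For mesothelium, which shares Upk1b and Upk3b with urothelium, 1 of 2 tested markers was upregulated in UUO, against 13.2% of all tested entries. Msln was at 26.2, 38.7 and 22.3 FPKM in the UUO rats, against 0.594 in sham rat 1 and 0.0001 in the other sham rats (7.22, SE 0.76, adjusted p = 0.00021). It was also upregulated in adenine, at 1.79, 1.07 and 3.99 FPKM against 0, 0.954 and 0.0414 (3.08, SE 0.94, adjusted p = 0.027), a call lost without control rat 1 (0.078), control rat 3 (0.083), adenine rat 1 (0.058) or adenine rat 3 (0.093), values that are adjusted p. Of the defining markers, Lrrn4 was at 0.347, 0.178 and 0.103 FPKM in the UUO rats, Bnc1 at 0.140, 0.412 and 0.112, and both at 0.0001 in all sham rats. Calb2 was at 0.0517 FPKM in UUO rat 1 and at 0.0001 in the other UUO rats. In sham rats 1, 2 and 3 Calb2 was at 0.0001, 0.131 and 0.203, so its mean was lower in UUO. Gpm6a, which other kidney cells express as well, had a change of -1.59 in UUO (SE 0.31, adjusted p = 0.0032), under the fold threshold, and it was past the thresholds after median-of-ratios scaling (-2.19) and quantile normalization (-2.18). The summed FPKM of the 5 markers was 11.8 to 22.6 in sham, 29.6 to 45.8 in UUO, 16.4 to 30.6 in control and 3.16 to 6.63 in adenine. Most of each control and sham sum was Gpm6a, and most of each UUO sum was Msln. The lower adenine sums rest on Gpm6a, which was downregulated there (-3.24, SE 0.53, adjusted p = 0.0022), while Msln was higher. Bnc1 was at 0 in all control rats and at 0.0791 to 0.215 FPKM in the adenine rats, too low to be tested. Lrrn4 and Calb2 stayed at or below 0.0488 FPKM in these rats.

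Most markers of kidney tubules were lower in UUO, where 3 of 7 principal cell markers were downregulated, among them Aqp2 (-3.36, SE 0.13, adjusted p = 1.1e-05), as were 1 of 5 intercalated cell, 2 of 4 proximal tubule and 2 of 2 thick limb markers, where 4.21% of all tested entries were downregulated. In adenine 1 of 7, 3 of 5, 2 of 4 and 1 of 2 were downregulated, against 5.03% of all tested entries, and the proximal tubule gene Slc5a12 was upregulated, at 3.22, 10.7 and 12.5 FPKM against at most 1.81 in the control rats (adjusted p = 0.013). With FPKM rescaled to the same sum the UUO changes of Lrp2 (-1.86), Slc12a1 (-1.91) and Scnn1g (-1.82) were under the fold threshold. So were those of Lrp2 without UUO rat 1 (-1.92) and of Slc12a1 without sham rat 1 (-1.96) or UUO rat 2 (-1.89). Scnn1g was also under it with a pseudocount of 1 (-1.91) and without sham rat 2 (-1.97), sham rat 3 (-1.95) or UUO rat 2 (-1.95). The inner medulla marker Aqp4 had a log2 fold change of -0.42 (adjusted p = 0.44) in adenine and -1.19 (adjusted p = 0.051) in UUO, and Slc14a2, tested only in adenine, had one of 0.69 (adjusted p = 0.78). FPKM are shares of a library. The summed proximal tubule FPKM was 66.9 to 181 in UUO against 765 to 1023 in sham, and the highest uroplakin sums in UUO, 134 and 138, stood with proximal tubule sums of 66.9 and 108. The part of the lower tubule transcripts in the urothelial values was not tested.

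The patterns most like those of Upk2 and Fxyd3 were sought among 14363 other symbols by Pearson correlation over the 12 samples of log2(FPKM + 0.1), each table centred on its control or sham group. The 12 points fall into UUO and other samples, which share tables and libraries, so the coefficients are a description without a p. Upk2 was most like Adra2a (r = 0.995), LOC100360449 (0.983), Shh (0.978), Tp63 (0.977) and Gba2 (0.977). Adra2a, an adrenergic receptor gene, was at 10.5, 6.05 and 8.91 FPKM in the UUO rats, with the same low rat as Upk2, and at 0.879 to 1.83 in the sham rats. Among the set itself Upk1a followed at rank 6 (0.976) and Upk3a at rank 8 (0.972), while Psca stood at rank 9081 (0.259).

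Fxyd3 was most like Mall (r = 0.985), Msln (0.983), Sprr1a (0.980), Rpl35a (0.979) and Bag5 (0.975). Sprr1a, a cornified envelope gene, was at 33.3, 49.6 and 44.9 FPKM in the UUO rats and 1.44, 0.242 and 0.0702 in the sham rats, and Mall, a relative of Mal, at 8.70, 7.42 and 6.43 against 0.893 to 1.51. Upk1b came at rank 9 (0.971) and Upk3b at rank 11 (0.971). Upk2 was at rank 241 for Fxyd3 (0.924), and UUO rat 2 was low for Upk2 and high for Fxyd3.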

How the data were processed

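The authors deposited gene-level FPKM in 2 tables, 1 for the control and adenine groups and 1 for the sham and UUO groups, made from paired-end reads of poly(A) RNA. The submitters' processing notes name cutadapt 1.9, HISAT2 2.0.4, StringTie 1.3.4d, edgeR and DESeq2. The genome build and annotation are not given in the sources used here. The authors used DESeq2 for fold changes, which needs counts, so FPKM were tested here as log2(FPKM + 0.1) with limma 3.58.1 (lmFit, eBayes with trend) in R 4.3.3, separately for each table and over all entries that reached 0.5 FPKM in 3 or more of 6 samples. DEGs needed p under 0.05 after Benjamini-Hochberg adjustment and a log2 fold change of 2 or more in either direction, the thresholds of the study. Lists, ratios and figures were made in Python 3.11.15 (pandas 2.3.3, numpy 2.4.6, scipy 1.17.1, matplotlib 3.10.9). The fits were tested on simulated data. An exact permutation test of 3 against 3 rats cannot go below p = 0.1 and was not used.

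The 8 genes and all lists (urothelial partner genes, FXYD family, cell type markers) were chosen with earlier results of these data known. Named genes were the 8 genes, up to 4 DEGs of each list or sublist with the largest change in UUO, and the 5 symbols most like Upk2 and Fxyd3. Genes named outside this rule (Krt20, Krt13, Krt18, Krt8, Gata3, Pparg, Klf4, Ovol1, Dsg3, Krt19, Epcam, Cldn7, Aqp3, Mal, Myo5b, Vps33a and some markers) were chosen after their values were seen. Krt6a was in neither table and Ly6d in 1. A marker gene is not reported here. Samples were grouped by their labels. Changes of single genes between the models were compared as a difference of log2 fold changes over the root of the summed squared SEs, taking the tables as independent. The fits were repeated with a pseudocount of 1 or 0.01, with the filter dropped or raised to 1 FPKM, after quantile normalization, median-of-ratios scaling or rescaling to an equal sum, with eBayes lacking the trend, with a replicate block, and without each sample in turn.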

Additional observations from a re-analysis of the deposited data

Results flagged for a closer look

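Krt19 changed differently in the models by the test of the difference itself. It was the 1 of 30 listed genes that differed, a share near the 2.9% of all symbols, and was named after its value was seen. Its log2 fold change was -0.40 (SE 0.26) in adenine and 2.04 (SE 0.18) in UUO, a difference of 2.43 (SE 0.31, adjusted p = 0.00031). The difference was 2.12 after median-of-ratios scaling, 2.33 after quantile normalization and 2.39 with FPKM rescaled to the same sum.

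Epcam, a surface protein of kidney epithelia, moved in opposite directions in the models, with no overlap between groups in either. It was at 195, 262 and 230 FPKM in the adenine rats, all below the control rats at 274, 374 and 312, and at 399.7, 397 and 497 in the UUO rats, all above the sham rats at 327, 303 and 279.9. The difference of the log2 fold changes was 0.98 (SE 0.21, adjusted p = 0.0047), under the fold threshold. The UUO change of 0.50 became -0.10 after median-of-ratios scaling, so its direction in UUO depends on the scaling, while the adenine change was -0.21 to -0.77 under the 3 other scalings.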

How the results depend on the processing

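Other settings moved 16 of 134 counts by over 1.5 times. With a pseudocount of 1 there were 1320 DEGs in the adenine model (2360 before) and 1465 in UUO (2613 before), 4 upregulated urothelial partner genes in adenine (7 before) and 1 called FXYD gene in adenine (2 before). FXYD calls in adenine were also 1 with FPKM rescaled to the same sum, and partner calls in UUO 15 after median-of-ratios scaling (25 before). Leaving out 1 sample gave 2264 to 2444 DEGs in adenine, 1 to 2 of the 8 genes past the thresholds there (2 without control rat 2, where both control rats left are at 0 for Fxyd3, so this is no test), 5 to 9 partner genes, 1 to 2 FXYD genes (1 without control rat 2 or adenine rat 1), and 1 to 3 partner genes that differed between the models (1 before, an alternative chosen after seeing the data). The median change of all adenine entries was -0.016 after quantile normalization. The UUO change of Slc5a12, -0.04, was 0.18 with FPKM rescaled to the same sum and ran from -1.24 to 0.57 when 1 sample was left out (0.57 without sham rat 1, 0.55 without sham rat 3, 0.37 without UUO rat 1). The cause was not tested.

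Same-numbered rats of the groups are different animals, and their deviations correlated at -0.08, -0.12 and -0.05 in the adenine table and at 0.05, 0.11 and 0.06 in the UUO table, not all over 0.1, so the numbers do not pair them. With the replicate block 6 partner genes were called in adenine (7 without it) and 25 in UUO (25), and the adjusted p of Upk3bl1 in adenine was 0.059 and that of Msln 0.053. The unknown depth limits every value near 0.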
